A study of Mus musculus with 4 samples.

Results

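Bipolar cells and cones of the mouse retina were compared gene by gene and isoform by isoform, in long-read counts given as 1 pooled column per cell class. A gene entered the comparison when it had 100 or more counts in both columns, and 3435 of the 16702 genes in the table did. For each of them the log2 ratio of its CPM (the counts scaled to a column total of 1000000) was taken, bipolar cells over cones. For each isoform, the difference in its share of the gene's counts was taken as well.

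The study sequenced retinal single-cell cDNA as long nanopore reads, so that 1 read can span a whole transcript. Its 4 libraries were of retina dissociated with papain, from mice of the inbred C57BL6/J strain, all male and wild-type: 2 libraries had no enrichment (1 from postnatal day 40, the other with no age given), 1 is labelled CD73 enrichment (postnatal week 8) and 1 CD90.2 enrichment (postnatal month 4). The protocol describes magnetic beads that removed CD73-positive cells in the one and kept CD90.2-positive cells in the other, while the design text names FACS. The columns name no library, so each class is a single value over cells of mixed age and preparation, nothing replicates it, and no test between bipolar cells and cones was possible.

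Cones are the photoreceptors of daylight vision. They hyperpolarise in light through a cascade of opsin, transducin, phosphodiesterase and a cyclic nucleotide-gated channel, and release glutamate from ribbon synapses in the dark. Bipolar cells are the neurons they contact. ON bipolar cells read the glutamate through the metabotropic receptor mGluR6, OFF bipolar cells through ionotropic receptors, and both carry the signal to amacrine and ganglion cells through ribbon synapses of their own.

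The bipolar column held 29010038 counts and the cone column 7307134. The minimum of 100 counts was therefore 3.45 CPM in bipolar cells and 13.7 CPM in cones, so a gene low in cones was left out at a level at which the reverse was kept. It was passed by 6180 genes in bipolar cells and 3515 in cones, with 2745 in bipolar cells only and 80 in cones only. The genes compared held 95.6% of the bipolar and 97.4% of the cone counts. Celf2 and Celf3, both with 101 cone counts, and Slc17a7, also with 101, were just inside the limit, and Gnai2, with 99 cone counts and 1983 bipolar counts, and Impg2, with 98 bipolar and 234 cone counts, were just outside. Exact 95% intervals are given in brackets. They cover counting error only, and whether the counts are reads or molecules is not given in the sources used here. In pooled columns, fewer cells of a type and less RNA per cell cannot be told apart.

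Both columns carried the markers of their label. All 12 bipolar markers (among them Grm6, Prkca and Pcp2) had their highest level of the 6 classes in the bipolar column, and all 12 cone markers (among them Opn1sw, Arr3 and Cnga3) had theirs in the cone column. Bipolar markers summed to 37185 CPM in bipolar cells and 1212 CPM in cones. Cone markers summed to 102992 CPM in cones and 1068 CPM in bipolar cells. RNA of rod markers was present in both. The 10 rod markers summed to 7734 CPM in bipolar cells and 37764 CPM in cones, against 97576 CPM in rods. Their median level was 2.04% of the rod level in bipolar cells and 4.73% in cones. However, Gngt1, the rod transducin gamma subunit, and Pde6g, an inhibitory phosphodiesterase subunit, stood at 49.0% and 49.9% of the rod level in cones. In bipolar cells Gngt1 stood at 14.3% and made up 6378 of the 7734 CPM, and Cngb1 stood at 13.8%. Müller glia markers summed to 598 CPM in bipolar cells and 847 CPM in cones, amacrine markers to 31.9 and 29.8 CPM, ganglion cell markers to 59.6 and 71.0 CPM, horizontal cell markers to 24.6 and 26.1 CPM, and microglia markers to 137 and 53.8 CPM. The markers at 0 counts in both columns included Tfap2a of amacrine cells and Pou4f1 and Pou4f2 of ganglion cells. Those at 0 in cones only were Trpm1 of bipolar cells, Cd44 of Müller glia, Gad2 of amacrine cells, Stmn2 of ganglion cells and Cx3cr1 and P2ry12 of microglia. How much of these marker sums is RNA of other cells, and its part in the results, was not tested. The exception is that each result was recomputed after subtracting the median rod percentages of the rod column.

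The differences between the classes lay in exons of a few codons as well as in levels. The cassette exons below (exons that 1 isoform of a gene includes and another skips) are 5 microexons (27 nt or less) and 2 longer exons, all with large differences in inclusion. They are shown because each is the piece of RNA that the classes include to a different degree. Capitals mark the exon and lower case the 20 bases spliced to it on each side in a GENCODE M21 transcript, 5′ to 3′ on the gene's strand, with coordinates on GRCm38. The Rps24 exon is given without neighbours.
Atp1b2, 27 nt, chr11:69602304-69602330, minus strand: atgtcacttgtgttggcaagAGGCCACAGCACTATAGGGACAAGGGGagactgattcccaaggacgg
Atp1b2, 21 nt, chr11:69601924-69601944, minus strand: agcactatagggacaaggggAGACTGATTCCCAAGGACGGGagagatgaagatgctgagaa
Ttc8, 30 nt, chr12:98937120-98937149, plus strand: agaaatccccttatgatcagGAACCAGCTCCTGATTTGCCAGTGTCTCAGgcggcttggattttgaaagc
Pphln1, 57 nt, chr15:93452117-93452173, plus strand: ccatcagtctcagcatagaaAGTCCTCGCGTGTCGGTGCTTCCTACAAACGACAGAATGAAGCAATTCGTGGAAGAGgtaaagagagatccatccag
Sgce, 27 nt, chr6:4690469-4690495, minus strand: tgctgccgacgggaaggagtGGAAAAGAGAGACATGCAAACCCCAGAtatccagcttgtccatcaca
Gramd1a, 12 nt, chr7:31133220-31133231, minus strand: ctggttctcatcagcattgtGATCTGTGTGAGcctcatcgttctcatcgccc
Rps24, 18 nt, chr14:24494052-24494069, plus strand: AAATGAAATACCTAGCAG
All 7 exons shown had higher inclusion in cones, and all 7 lengths are divisible by 3. The cassette exons counted below as differing were not all of this kind. Of these 64 exons, 32 had higher inclusion in cones and 32 in bipolar cells. Of the same 64, 32 (50%) had a length divisible by 3, against 37.8% of all cassette exons compared. Each of the 7 exons shown is wholly coding in at least 1 M21 transcript, except that of Rps24, which is partly coding.

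At the level of whole genes, most genes compared were within 2-fold between the classes. Of 3435 genes, 277 (8.06%) were 2-fold or more higher in bipolar cells and 471 (13.7%) were 2-fold or more higher in cones, 748 (21.8%) in all. At 4-fold the counts were 75 (2.18%) and 156 (4.54%). The median log2 ratio was 0.01 and the middle 50% of genes lay between -0.54 and 0.45. Counting error was small beside this: the interval excluded equal levels for 2842 genes, of which 2094 differed by less than 2-fold. The split between the directions depended on the minimum. With the same minimum CPM in both columns it was 277 to 257 of 3080 genes, and with 100 counts in 1 column as enough it was 1563 to 616 of 6260 genes. Scaling by the median of ratios moved the median of all genes to -0.18 and the split to 216 and 583.

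**Figure D1:**
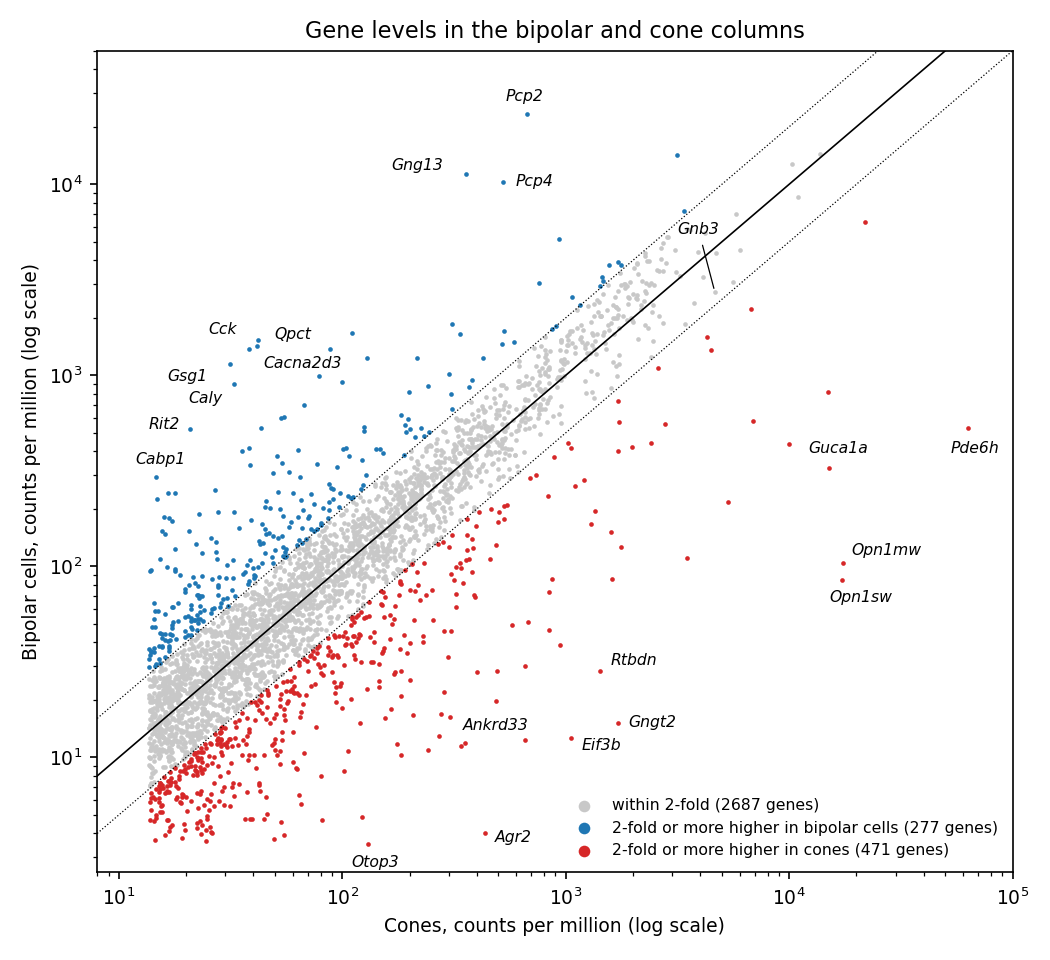
Level of each of the 3435 genes compared in cones (x axis) and in bipolar cells (y axis), both in CPM on log scales, with 1 point per gene. The solid line marks equal levels and the dotted lines 2-fold differences; blue and red points are the 277 and 471 genes past them, and the 10 genes farthest out on each side are named together with Gnb3, which lies within 2-fold.

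Of the 10 genes farthest on the cone side 4 were of the cone cascade. Opn1sw, the short-wavelength opsin (chr6:29376671-29388468), was at 85.3 CPM in bipolar cells and 17211 CPM in cones, a log2 ratio of -7.66 (-7.71 to -7.60). Opn1mw, the middle-wavelength opsin (chrX:74127464-74150760), was at 104 and 17490 CPM, a log2 ratio of -7.39. Pde6h, the cone phosphodiesterase inhibitory subunit, was at 531 and 62874 CPM, and Gngt2, the cone transducin gamma subunit, at 15.1 and 1708 CPM. The opsins, Pde6h and Gngt2 were thus more than 100 times higher in cones. Gnat2, the cone transducin alpha subunit, was closer, at 85.9 and 1605 CPM (log2 ratio -4.22), as was Cngb3, a cone channel subunit, at 4.17 and 24.5 CPM (-2.55). Of the 10 listed members of the cone cascade 7 could be compared, and 6 were 2-fold or more higher in cones, against 13.7% of all genes. Pde6c (85 and 1220 counts), Arr3 (69 and 3020) and Cnga3 (4 and 101) missed the minimum in bipolar cells.

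The exception was Gnb3, the transducin beta subunit of cones (chr6:124834240-124840275), which ON bipolar cells also use. It was at 2717 CPM in bipolar cells and 4654 CPM in cones, 1.71-fold apart (log2 ratio -0.78, -0.79 to -0.76), against 119 CPM in rods, 78.8 CPM in Müller glia and 18.9 CPM in amacrine cells. Gnb3 was therefore high in both classes and low in the other columns named. The gamma subunit differed: bipolar cells had Gng13, the gamma subunit of ON bipolar cells, at 11346 CPM against 357 CPM in cones (log2 ratio 4.99), where cones had Gngt2.

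Genes of the photoresponse that rods and cones share were also higher in cones, all 11 of the 11 that could be compared, with a median log2 ratio of -3.57 against 0.01 over all genes. Guca1a, which activates the guanylate cyclase of the outer segment when calcium falls, was at 328 and 15151 CPM (-5.53). Aipl1, a chaperone of phosphodiesterase, was at 111 and 3474 CPM (-4.97), Sag, the rod arrestin, at 216 and 5351 CPM (-4.63), and Rcvrn, the calcium sensor recoverin, at 438 and 10014 CPM (-4.51). These genes were high in rods too: Sag had 9645 CPM and Rcvrn 14696 CPM there. With the rod column subtracted the median of the 11 was -5.13 and Guca1a stood at -7.05.

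All 6 outer segment genes that could be compared were higher in cones, with a median of -2.31. Tulp1, needed for protein transport to the outer segment, was at 30.02 and 656 CPM (-4.45), Pcdh15 at 8.79 and 62.3 CPM (-2.82), Prph2, which shapes the disc rim, at 559 and 2785 CPM (-2.32), and Rp1, a microtubule protein of the axoneme, at 52.1 and 256 CPM (-2.29). Of 17 cilium genes 8 were higher in cones, 1 was higher in bipolar cells and 8 were within 2-fold. Over all genes compared 13.7% were 2-fold or more higher in cones and 8.06% in bipolar cells. Rpgrip1, an anchor of the connecting cilium, was at 22.03 and 286 CPM (-3.70), and Arl6, a GTPase that recruits the BBSome, at 167 and 1304 CPM (-2.96). Going the other way, Ift20, an intraflagellar transport subunit that also works at the Golgi, was at 411 CPM in bipolar cells and 101 CPM in cones (2.03). Ift20, chosen after its value was seen, was thus the only listed cilium gene past 2-fold on the bipolar side.

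Several of the genes farthest on the cone side lay outside the cascade. Agr2, a disulfide isomerase of the endoplasmic reticulum, was at 4.00 CPM in bipolar cells and 435 CPM in cones (log2 ratio -6.76). Ankrd33, an ankyrin repeat protein, was at 12.3 and 660 CPM (-5.75), Rtbdn, the riboflavin-binding retbindin, at 28.3 and 1426 CPM (-5.65), and Otop3, a proton channel, at 3.52 and 130 CPM (-5.21). Agr2 and Otop3 were low in rods as well, at 7.03 and 1.68 CPM, whereas Ankrd33 had 460 CPM and Rtbdn 820 CPM there. With the rod column subtracted Rtbdn moved to -6.94.

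Eif3b, a translation initiation factor subunit made in most cells, was among them at 12.7 and 1059 CPM (-6.39). The excess came from a single isoform. A 4-exon unannotated transcript at the 3′ end of the gene (chr5:140441639-140443360, plus strand) held 7710 of the 7739 cone counts (99.6%, 99.5 to 99.7%) and 241 of 367 bipolar counts (65.7%, 60.6 to 70.5%). The 19-exon transcript of the whole gene (chr5:140419328-140443360) had 126 counts in bipolar cells and 29 in cones, so this transcript was not higher in cones once scaled to the column totals. The cone value of Eif3b is thus that of its last exons and not of the full coding transcript.

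On the bipolar side, the 10 genes farthest out were Gng13, described above, and the following. Pcp2, a modulator of Go signalling (chr8:3623371-3625545), was at 23352 CPM in bipolar cells and 669 CPM in cones (log2 ratio 5.12, 5.08 to 5.17). Pcp4, which tunes calmodulin, was at 10253 and 524 CPM (4.29). Cck, the neuropeptide cholecystokinin, was at 1528 and 42.0 CPM (5.18), and Cacna2d3, a calcium channel subunit, at 1368 and 38.3 CPM (5.16). Gsg1 was at 1141 and 31.3 CPM (5.19), and Qpct, which forms the pyroglutamate end of peptides, at 1432 and 41.7 CPM (5.10). Cabp1, a calmodulin relative, was at 294 and 14.6 CPM (4.33), Caly at 903 and 32.7 CPM (4.79) and Rit2, a neuronal GTPase, at 526 and 20.8 CPM (4.66). The cone levels of Pcp2 and Gng13 were similar to those in Müller glia (744 and 330 CPM) and in rods (832 and 451 CPM). The part of bipolar RNA in these cone values, and so in the ratios and their order, was not tested.

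The levels of the genes farthest out on the bipolar side varied in amacrine cells. Gsg1 and Cacna2d3 were at 1.97 and 3.13 CPM in amacrine cells, far below bipolar cells. Caly, Rit2 and Cabp1 were at 683, 633 and 572 CPM there, which is above the bipolar level for Rit2 and Cabp1 and below it for Caly. Pcp4 was highest in ganglion cells, at 12142 CPM.

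Most of the ON bipolar pathway could not be compared because it was too low in cones. Of its 15 listed genes 5 had 100 counts in both columns. Gng13 and Pcp2 were higher in bipolar cells. Gnb5, the partner of the RGS proteins that end the signal in both cell types, was higher in cones, at 12.9 and 271 CPM (-4.39), and Gnb3 and Lrit1, a synaptic leucine-rich repeat protein (21.8 and 31.3 CPM, -0.52), were within 2-fold. With the rod column subtracted Gnb5 stood at -5.91. The other 10 included Grm6, the receptor itself, with 569 counts in bipolar cells and 4 in cones. Trpm1, the channel it closes, had 118 and 0 counts, Nyx, which holds the receptor complex in place, 276 and 0, Rgs11, which speeds the response, 3577 and 42, and Prkca, the marker kinase of rod bipolar cells, 906 and 4. A count of 0 in cones allows up to 3 counts or 0.411 CPM, against 4.07 CPM for Trpm1 and 9.51 CPM for Nyx in bipolar cells. Lrit3 was the only one of these 10 with more counts in cones, 59 against 6.

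The OFF side and the receptors of bipolar cells showed the same limit. Grik1, the kainate receptor subunit of OFF cells, had 400 counts in bipolar cells and 2 in cones, and the GABA receptor genes Gabrr1 and Gabrr2 had 11096 and 11029 against 58 and 73. Of the OFF list only Cabp5, a calcium-binding protein of several bipolar types, was compared, at 533 and 43.2 CPM (3.62).

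Of 4 transcription factors listed for bipolar cells and compared, 3 were higher in bipolar cells and 1 in cones, against 8.06% and 13.7% of all genes. Sebox was at 1371 CPM in bipolar cells and 87.7 CPM in cones (3.97), Otx2 at 48.3 and 14.1 CPM (1.78) and Lhx4 at 68.6 and 22.9 CPM (1.58). Six3, also listed for bipolar cells, was higher in cones, at 45.3 and 103 CPM (-1.18). Isl1 (306 and 1 counts), Irx6 (684 and 20) and Neurod4 (3525 and 25) were under the minimum in cones. Of 6 photoreceptor factors compared 4 were higher in cones, against 13.7% of all genes. Among the 4 were Crx, the photoreceptor homeobox factor, at 24.5 and 98.9 CPM (-2.02), and Rxrg, a nuclear receptor of cones, at 40.2 and 116 CPM (-1.53). The others were the rod factors Nr2e3 (22.3 and 56.0 CPM) and Nrl (19.5 and 43.2 CPM). Nrl was at 954 CPM in rods. With the rod column subtracted 3 photoreceptor factors could be compared and 2 were higher in cones, as Nrl, Nr2e3 and Otx2 dropped under the minimum. Neurod1 was at 292 and 561 CPM, within 2-fold, and passed 2-fold when scaled by the median of ratios.

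Both cells have ribbon synapses, and of 14 genes of that list 7 were within 2-fold, 6 were higher in cones and 1 in bipolar cells. For this list and the calcium-binding one, the shares over all genes compared were 13.7% higher in cones and 8.06% in bipolar cells. Cabp4, which sets the calcium channel of the photoreceptor terminal, was at 19.8 and 489 CPM (-4.63), and its relative Cabp5 showed the opposite order, with the values given above. Dmd was at 16.4 and 65.0 CPM (-1.99) and Unc119, a lipid-binding trafficking protein, at 2216 and 6747 CPM (-1.61). Cabp4 was at 716 CPM in rods. Of 10 calcium-binding genes 2 were higher in bipolar cells (Cabp1 and Cabp5), 3 in cones (Cabp4, Rcvrn and Hpcal1, the last at 8.45 and 102 CPM, -3.60) and 5 within 2-fold.

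Of 21 glycolysis and lactate genes 4 were higher in bipolar cells, 3 in cones and 14 within 2-fold, against 8.06% and 13.7% of all genes past 2-fold. Slc16a3, a lactate exporter, was at 99.2 CPM in bipolar cells and 16.4 CPM in cones (2.59), and Tpi1, triosephosphate isomerase, at 3767 and 1558 CPM (1.27). Slc16a1, another lactate carrier, was at 4.48 and 19.6 CPM (-2.13), and Ldhb, the heart-type lactate dehydrogenase, at 81.9 and 348 CPM (-2.09). The carrier that was higher thus differed between the classes. The remaining 3 past 2-fold, named because their values passed it, were Pfkp (1.22) and Mpc1 (1.02) on the bipolar side and Ldha (-1.24) on the cone side. Slc16a3 had 120 counts in cones and dropped under the minimum with the rod column subtracted.

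Oxidative phosphorylation showed no gene past 2-fold among 73, with a median of 0.16 that became -0.02, with 3 genes past 2-fold in cones, when scaled by the median of ratios. Ribosomal protein genes leaned to bipolar cells: 78 of 80 had a log2 ratio above 0, against 50.7% of all genes, with a median of 0.64. Of the 80, 7 were 2-fold or more higher in bipolar cells, a share near the 8.06% of all genes, and none in cones, against 13.7% of all genes. The farthest were Rps27 (136 and 42.4 CPM, 1.68), Rpl35a (589 and 197 CPM, 1.58) and Rpl13a (503 and 193 CPM, 1.38). The median stayed positive with both other scalings, at 0.62 with TMM and 0.45 with the median of ratios, and was 0.66 with the rod column subtracted.

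**Figure D2:**
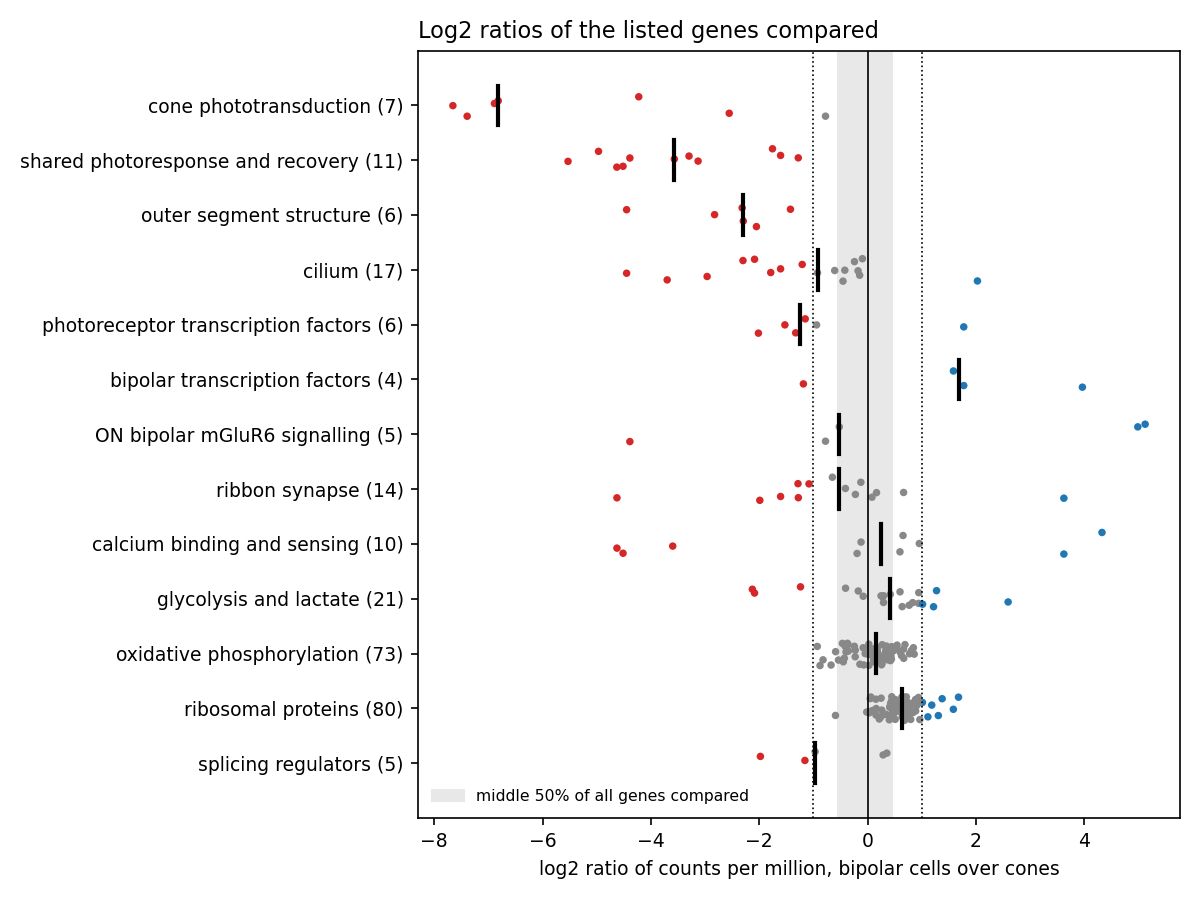
Log2 ratio of CPM, bipolar cells over cones, for the genes of 13 lists that had 100 or more counts in both columns (number in brackets), with 1 point per gene, a black bar at the median, dotted lines at 2-fold and the middle 50% of all 3435 genes shaded. Cone phototransduction, the shared photoresponse and outer segment genes lie to the left, and ribosomal proteins cluster right of 0. The 5 of 15 listed ON bipolar genes that could be compared spread to both sides, and the others had under 100 cone counts.

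Isoform use was compared in the 2244 genes that had 2 or more isoforms listed. In 149 of them (6.64%) an isoform differed by 25 percentage points or more in its share of the gene, and in 26 (1.16%) by 50 points or more. The most abundant isoform differed in 191 genes (8.51%), and in 94 (4.19%) this came with a difference of 25 points or more. The median of the largest difference per gene was 5.17 points. Of the 149 genes 89 (59.7%) were within 2-fold in level, against 77.9% of the 2244, while 17 were higher in bipolar cells and 43 in cones.

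Most of the genes farthest apart in level differed little in isoform use. Of the 20 genes farthest in level 13 had 2 or more isoforms, 1 of these (Eif3b) differed by 25 points or more, and their largest difference in share had a median of 3.27 points. For 11 of the 13 it was under 10 points, so the counts in the low column had nearly the same isoform proportions as those in the high column. Small differences were not particular to these genes. Over all 2244 genes the median was 5.17 points, and only 663 differed by 10 points or more. Whether the counts in the low column are RNA of that class or of the other was not tested. The main isoform of Opn1sw held 78.9% in bipolar cells and 80.0% in cones, that of Opn1mw 68.4% and 69.3%, and that of Pcp2 87.4% and 86.0%.

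Gnat2 and Lhx4 did not share this pattern. In Gnat2 an unannotated 9-exon isoform with an earlier start (chr3:108092789-108101291, plus strand) held 1532 of 2491 counts in bipolar cells (61.5%, 59.6 to 63.4%), 2375 of 11729 in cones (20.2%) and 28.9% in rods. The annotated isoform ENSMUST00000058669.14 held 32.0% in bipolar cells and 58.9% in cones. Gnat2 counts in bipolar cells thus had a composition unlike that of either photoreceptor column. In Lhx4, an unannotated isoform from an upstream first exon (chr1:155701652-155751684, minus strand) held 63.1% of 1989 bipolar counts and 4.19% of 167 cone counts (1.70 to 8.45%), and the annotated ENSMUST00000027740.13 held 36.9% and 95.8%. Rods had 62.3% of the upstream form, a share near that of bipolar cells, but on only 159 counts. The part of bipolar RNA in these rod counts was not tested.

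The largest differences in share were in 12 genes, most of them not known for a role in either cell alone. In Ccdc136, a coiled-coil protein, an unannotated isoform of 9 exons held 1.43% of 3914 counts in bipolar cells and 86.9% of 198 in cones (81.4 to 91.2%), and the 10-exon ENSMUST00000145310.7 held 90.7% and 13.1%. Rods, at 8.70% of the 9-exon form, were on the bipolar side, so among these 12 genes Ccdc136 set cones apart from rods as well. In Prkcz, an atypical protein kinase C, the 18-exon ENSMUST00000030922.14 held 12.6% in bipolar cells and 96.8% in cones, and ENSMUST00000103178.10, which starts further downstream, held 87.4% and 3.22%. The gene is known for a shorter brain form, PKM-zeta, made from an internal promoter. Amacrine cells had 97.8% of the short form and rods 4.91%.

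In Rxrg, ENSMUST00000015987.9 held 8.58% in bipolar cells and 88.1% in cones, and ENSMUST00000111384.7 held 74.3% and 9.34%. Their first exons overlap but end at different splice donors. Rxrg, used as a cone marker, was thus mostly of the other form in bipolar cells. In Uckl1, a uridine kinase relative, ENSMUST00000057816.14 held 67.6% in bipolar cells and 1.37% in cones. In Ifitm10 the annotated ENSMUST00000084412.5 held 91.5% and 14.5%, and an unannotated isoform with a start upstream held 8.49% and 85.5%. Snx10, a sorting nexin of endosomes, had 98.6% of ENSMUST00000049152.14 in bipolar cells and 35.6% in cones.

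In Arid4a, a chromatin protein, an isoform of the first 15 exons (chr12:71016029-71063186) held 30.3% of 1536 bipolar and 96.4% of 168 cone counts. An isoform of 8 exons further along the gene (chr12:71048341-71071886) held the other 69.7% and 3.57%. In Ctnna1, the adhesion protein alpha-catenin, the 7-exon ENSMUST00000236969.1 held 18.8% of 245 and 83.7% of 141 counts, and 2 unannotated 12-exon isoforms from an internal start held 43.7% and 29.4% in bipolar cells and 0% in cones (0 to 2.58%). Gpm6b, a proteolipid of the cell surface, had 8.38% of ENSMUST00000060210.13 in bipolar cells and 72.0% in cones. Its main bipolar form, ENSMUST00000112235.7, held 46.5% of 811 counts there, 14.1% in cones and 63.2% of 6334 counts in Müller glia. The part of Müller glia RNA in the bipolar value was not tested. Among the genes with the largest differences in share, all but Ccdc136 had a rod share on the cone side, in Ifitm10 on only 69 rod counts.

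Hk1, the hexokinase that opens glycolysis, was within 2-fold in level (60.0 and 33.7 CPM) and differed at both ends. An unannotated 18-exon isoform from an internal first exon (chr10:62269104-62327767, minus strand) held 1.95% of 1740 counts in bipolar cells, 63.4% of 246 in cones (57.1 to 69.4%) and 69.5% in rods. An unannotated 8-exon isoform that ends early (chr10:62291946-62340163) held 71.6% in bipolar cells (69.4 to 73.7%) and 15.9% in cones. The full-length ENSMUST00000099691.10 held 26.3% and 16.3%. Most Hk1 counts in bipolar cells thus went to a model without the 3′ exons of the gene.

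**Figure D3:**
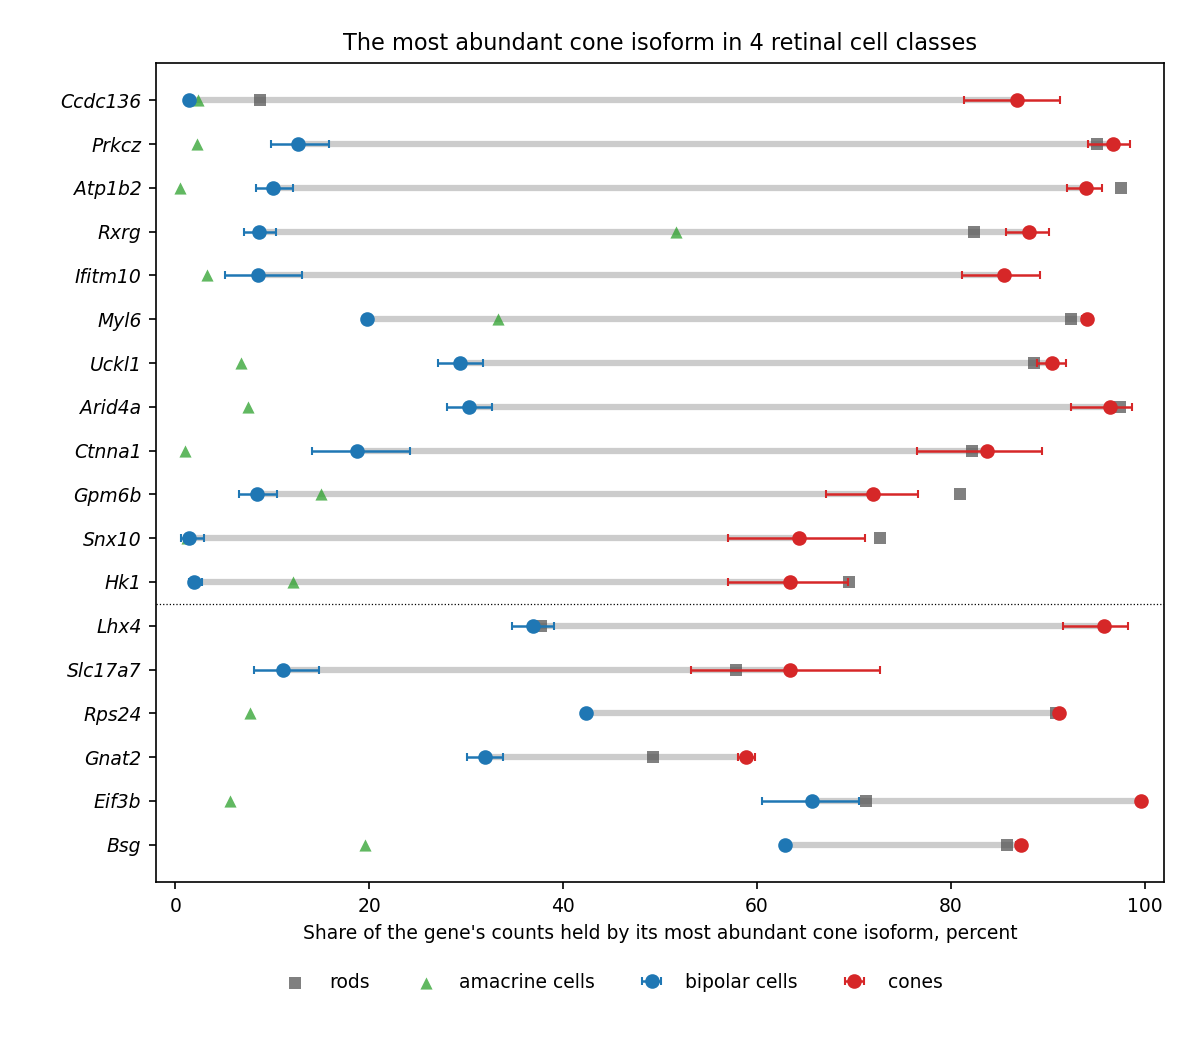
Share of the gene's counts, in percent, held by the isoform most abundant in cones, for 18 genes in bipolar cells (blue), cones (red), rods (grey squares) and amacrine cells (green triangles); classes with under 100 counts of the gene are left out of the last 2 and bars are exact 95% counting intervals. Above the dotted line are the 12 genes with the largest difference, and below it are genes of the lists. Above it, rods lie beside cones except in Ccdc136, and Ifitm10, with 69 rod counts, has no rod point.

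To see which part of the transcript differed, the 149 genes were read at their splice sites, using the deposited transcript models. The models hold 99.9% of the counts of both columns. Of the 149 genes 71 had a difference of 25 points or more in the first splice donor, 47 in a cassette exon, 28 in the last splice acceptor and 19 in none of these. Over all genes with a choice, the first donor differed in 75 of 820 (9.15%) and the last acceptor in 33 of 475 (6.95%). The first donor marks the end of the first exon of the model, and it can differ between overlapping first exons, as in Rxrg. Prkcz, Rxrg, Ifitm10 and Ctnna1 were among the 5 largest. The other was Pcbp3, an RNA-binding protein, in which a donor at chr10:76822730 took 99.1% of the bipolar counts, 19.3% of the cone counts and 6.83% of the rod counts.

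Last acceptors differed most in Arid4a, Ctnna1, Celf2, Hk1 and Prr3. In Celf2, an RNA-binding splicing regulator, the acceptor at chr2:6545675 took 40.0% of 205 counts in bipolar cells (33.2 to 47.1%) and 97 of 101 in cones (96.0%). In Prr3 the acceptor at chr17:35973803 took 88.1% and 40.4%. For first donors and last acceptors alike, the files do not tell a true transcript end from the end of an incomplete read, and the part of such reads was not tested.

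Cassette exons were compared next. Of 2194 exons compared 64 (2.92%), in 56 genes, differed by 25 points or more, 32 (1.46%) with higher inclusion in cones and 32 (1.46%) in bipolar cells. Of the 64 exons 44 were wholly coding in an annotated transcript, 32 (50%) had a length divisible by 3, against 37.8% of all compared, and the median length was 88 nt against 104 nt. Among microexons, 9 of 75 (12%) differed, 6 with higher inclusion in cones and 3 in bipolar cells, against 55 of 2119 (2.60%) of the longer ones.

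**Figure D4:**
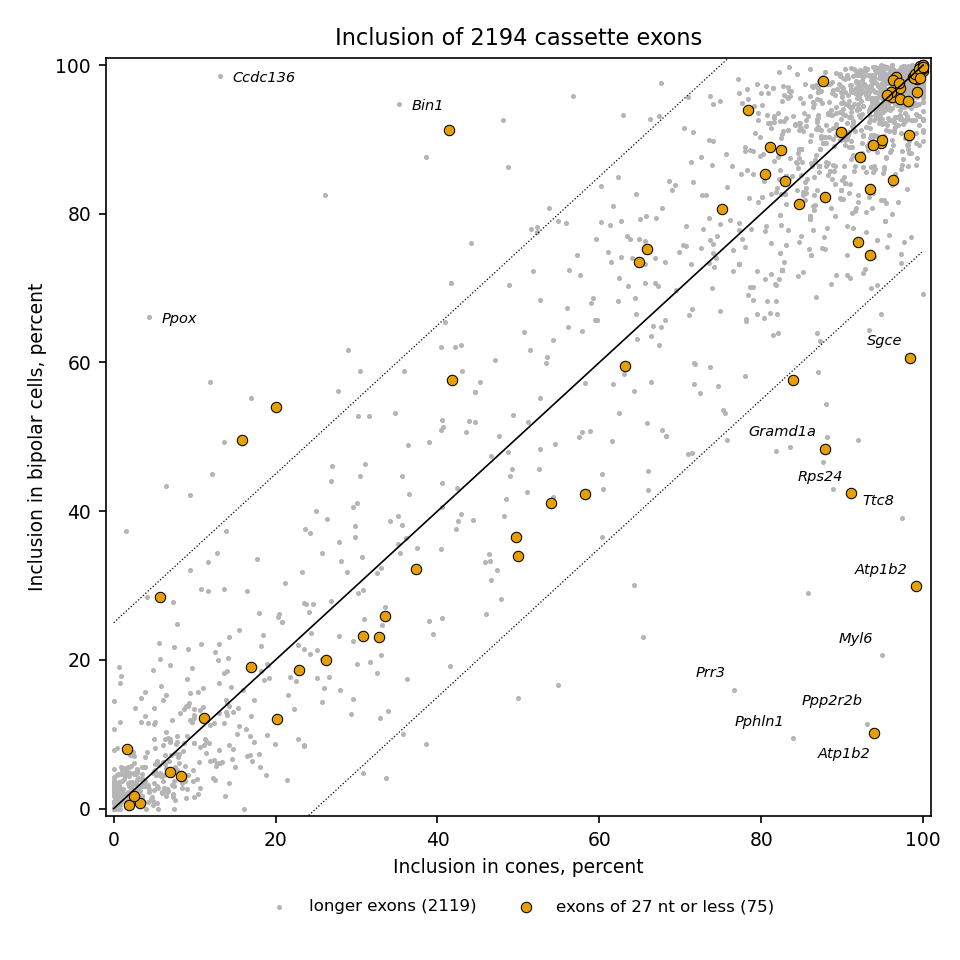
Inclusion of each of 2194 cassette exons in cones (x axis) and bipolar cells (y axis), in percent of the counts that include or skip the exon, with exons of 27 nt or less in orange and dotted lines at 25 points. Most exons lie near the diagonal, and named exons are those with the largest differences.

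At most of these exons rods were nearer to cones and amacrine cells nearer to bipolar cells. Rod inclusion was nearer to cones for 57 of the 64 exons and nearer to bipolar cells for 7, with a median distance of 6.82 points to cones and 34.3 points to bipolar cells. Amacrine inclusion was nearer to bipolar cells for 51 of 61 exons with 100 or more amacrine counts, at a median distance of 9.39 points, against 39.8 points to cones. Müller glia were divided, 20 nearer to cones and 19 nearer to bipolar cells. For the isoform shares of the 149 genes the order was the same: rods were nearer to cones in 110 of 145 genes and amacrine cells nearer to bipolar cells in 110 of 141. For 34 of the 61 exons the bipolar value lay between those of cones and amacrine cells. With the rod column subtracted, the 61 exons that still had 100 counts all kept a difference of 25 points or more in the same direction.

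Atp1b2, the beta-2 subunit of the sodium-potassium ATPase, had the 2 microexons with the largest differences, and their sequences follow each other in the transcript. The gene was higher in cones, at 33.4 CPM in bipolar cells and 95.5 CPM in cones (log2 ratio -1.51). The 27-nt exon was included in 290 of 970 counts in bipolar cells (29.9%) and 692 of 698 in cones (99.1%, 98.1 to 99.7%). The 21-nt exon was included in 98 of 970 (10.1%, 8.28 to 12.2%) and 656 of 698 (94.0%, 92.0 to 95.6%). Rods were at 99.0% and 97.6%, and amacrine cells at 3.61% and 0.49%. As whole isoforms, the form with both exons held 94.0% in cones and 10.1% in bipolar cells, the form with only the longer one 5.16% and 19.8%, and ENSMUST00000047889.12, with neither, 0.86% and 70.1%. These 3 isoforms held all counts of the gene in both classes, so no count had the shorter exon without the longer one.

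Other exons known from photoreceptors varied. Ttc8 encodes a subunit of the BBSome, a complex that carries proteins of the cilium, and its 30-nt exon was included in 39.1% of 1166 counts in bipolar cells (36.3 to 42.0%) and 97.4% of 1014 in cones (96.3 to 98.3%). It was at 98.9% in rods and 8.83% in amacrine cells. In Bsg, basigin, the long form with an additional immunoglobulin domain (ENSMUST00000067036.11, with a 348-nt exon) held 62.9% of 78567 bipolar counts and 87.2% of 16655 cone counts, just under 25 points apart, with 85.8% in rods, 19.5% in amacrine cells and 2.39% in Müller glia. A 13-nt exon of Arl6 was at 98.2% and 98.9%, and so did not differ by the size used, with 66.6% in amacrine cells. A 17-nt exon of Impdh1 was at 76.3% in bipolar cells, 92.0% in cones and 19.9% in amacrine cells. A 99-nt exon of Impdh1 (98.2% and 96.0%) and its 102-nt variant (98.5% and 94.9%) were slightly higher in bipolar cells. These exons of Bsg and Arl6 and the 17-nt exon of Impdh1 were thus included in most bipolar counts, and those of Atp1b2 and Ttc8 in a minority. Slc17a7, the vesicular glutamate transporter of both cells, had 63.4% of the 13-exon ENSMUST00000209634.1 in cones, on 101 counts (53.2 to 72.7%), and 11.1% in bipolar cells. In Rpgrip1, the last member of that list compared, a 7-exon isoform held 94.1% and 85.6%.

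Exons outside that list were as far apart. The 57-nt exon of Pphln1, periphilin, was included in 9.46% of 391 counts in bipolar cells (6.75 to 12.8%), 83.9% of 329 in cones (79.5 to 87.7%) and 72.4% in rods. A 45-nt exon of Myl6, the essential light chain of myosin (chr10:128491720-128491764), was at 20.6% of 46840 counts in bipolar cells and 94.9% of 7372 in cones, with 93.0% in rods, 33.5% in amacrine cells and 74.9% in Müller glia. A 194-nt exon of Ppp2r2b, a phosphatase subunit, was at 11.4% and 93.0%, and a 71-nt exon of Prr3 at 16.0% and 76.6%. Bipolar cells were higher at a 107-nt exon of Ccdc136, with 98.6% against 13.1%, and at a 149-nt exon of Ppox, the heme enzyme, with 66.1% of 177 counts against 4.38% of 160. A shorter, 116-nt variant of this Ppox exon was at 82.5% of 343 counts in bipolar cells and 26.1% of 207 in cones. Neither percentage counts isoforms with the other variant.

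Bin1, amphiphysin 2, set cones apart from rods. Its 129-nt coding exon was included in 94.8% of 3165 counts in bipolar cells (93.9 to 95.5%), 35.3% of 1046 in cones (32.4 to 38.3%) and 3.81% in rods, with 96.9% in amacrine cells and 7.86% in Müller glia. Cones were thus between rods and the inner retinal neurons.

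Further microexons had smaller differences. The 27-nt exon of Sgce, epsilon-sarcoglycan, was at 60.6% in bipolar cells and 98.4% in cones, and the 12-nt exon of Gramd1a, a sterol transporter, at 48.4% and 87.9% (80.1 to 93.4%, on 107 counts). Rods were at 93.4% and 75.2%, and amacrine cells at 31.3% and 46.2%.

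Rps24, a protein of the small ribosomal subunit, had the best counted of these exons. Its 18-nt exon was included in 89699 of 211501 counts in bipolar cells (42.4%, 42.2 to 42.6%) and 22429 of 24614 in cones (91.1%, 90.8 to 91.5%). Rods were at 90.8%, ganglion cells at 80.1%, Müller glia at 20.8% and amacrine cells at 7.65%. Of the 30 ribosomal protein genes with 2 or more isoforms, Rps24 was the 1 with a difference of 25 points or more.

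**Figure D5:**
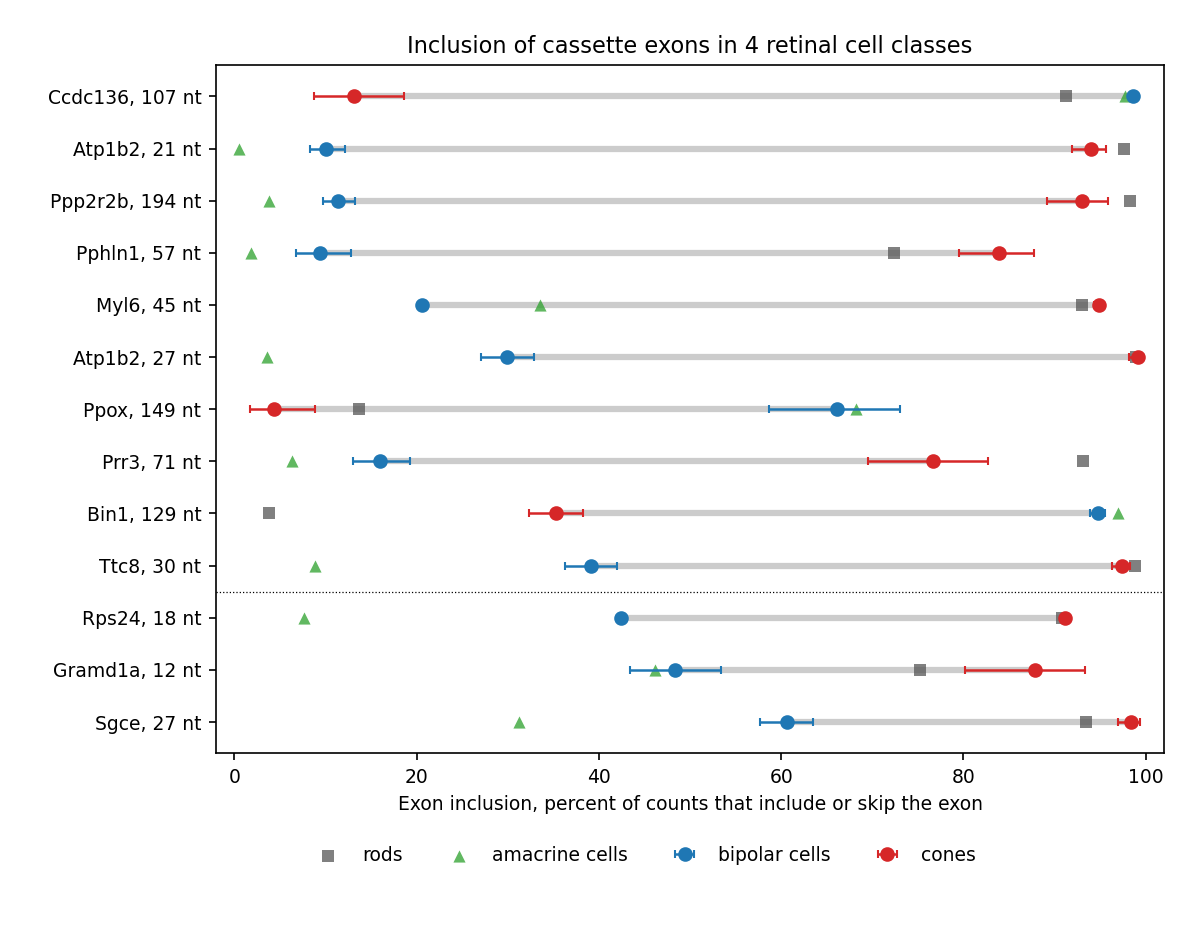
Inclusion of 13 cassette exons, in percent of the counts that include or skip the exon, in bipolar cells (blue), cones (red), rods (grey squares) and amacrine cells (green triangles), with exact 95% counting intervals for the first 2. The 10 exons above the dotted line have the largest differences and the 3 below it are further microexons. Rods lie beside cones in most. Amacrine cells lie nearer to bipolar cells than to cones, but well below bipolar cells in Rps24, Ttc8, Sgce and the 27-nt exon of Atp1b2.

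Most of the splicing regulators listed here were measured thinly. Of 34 listed regulators 5 could be compared. Pcbp2 was at 13.6 CPM in bipolar cells and 53.5 CPM in cones (log2 ratio -1.98) and Celf1 at 12.3 and 27.5 CPM (-1.16). Celf2 (7.07 and 13.8 CPM), Celf3 (17.7 and 13.8 CPM) and Msi2 (22.5 and 18.5 CPM) were within 2-fold, and Celf2 passed it when scaled by the median of ratios. In 3 of the 5, Celf2, Celf3 and Pcbp2, an isoform of the regulator itself differed by 25 points or more, against 6.64% of all genes with 2 or more isoforms. In Pcbp2 an unannotated 13-exon isoform held 2.03% of 394 bipolar and 29.7% of 391 cone counts. In Celf3 an unannotated 14-exon isoform held 17.3% of 513 and 47.5% of 101 counts. Msi1, a regulator of photoreceptor exons, had 43 counts in bipolar cells and 120 in cones, Srrm4, a regulator of neuronal microexons, 423 and 50, and Khdrbs3 312 and 1, and these could not be compared at the minimum used.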

How the data were processed

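Per the labels, 4 nanopore libraries were made from single-cell cDNA of mouse retina. The authors deposited whole-number counts per isoform in 6 columns, 1 per cell class, and transcript models that name FLAIR, a long-read isoform builder, as their source. Build mm10 (GRCm38) is given per the submitters' processing notes, and 94.4% of the models' splice junctions were at the same place in GENCODE M21. Cell calling, cell typing, treatment of doublets, use of molecular identifiers and the libraries in each column are not given in the sources used here. The deposited models are those of isoforms with a count in rods, and isoforms without one enter shares but not exons or ends. In all, 0 columns were left unused.

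Isoform counts were summed by the gene named in each identifier, and 13448 of 13452 Ensembl genes matched a symbol. CPM used the column total. Intervals are exact (Clopper-Pearson) at 95%, and for a log2 ratio were taken from the share of the 2 counts. An exon's inclusion is the counts of isoforms with that internal exon over these plus those whose intron spans it, with 100 or more in each column. Differences were called by size: 2-fold, or 25 points. No test was made with 1 value per class. Alternatives were other scalings (edgeR 4.0.16 TMM, DESeq2 1.42.0 median of ratios), minimums, sizes and isoform sets, and subtraction of 2.04% (bipolar) and 4.73% (cone) of the rod column. Python 3.11.15, pandas 2.3.3, SciPy 1.17.1 and R 4.3.3 were used, and the rules were tested on simulated data.

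Named genes were the 10 farthest in level each way, all compared members of the cone cascade, ON bipolar, splicing regulator and photoreceptor exon lists, the 4 farthest of other lists, the 12 largest isoform differences, the 10 exons and 6 microexons with the largest differences, and the 5 genes each for first donor and last acceptor. Some genes that the rule names are not reported here. Other genes named were chosen after their values were seen. The members and lists were chosen with earlier results of these data known.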

Additional observations from a re-analysis of the deposited data

How the results depend on the processing

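The counts of differing genes followed the minimum and the size asked for, which changes the number of genes tested by construction. With 20 counts as the minimum, 755 genes were higher in bipolar cells and 989 in cones, 595 genes differed in isoform share and 535 in the most abundant isoform, 151 exons were higher in cones and 170 in bipolar cells, and 239 genes differed in the first donor and 190 in the last acceptor. With 500 counts these were 83, 196, 38, 54, 12, 8, 21 and 5. With 100 counts in 1 column as enough, 1563 genes were higher in bipolar cells. An equal minimum CPM left 257 genes higher in cones. At 4-fold there were 75 and 156 genes. At 10 points 663 genes differed in share and at 50 points 26, with 8 and 4 exons, 23 first donors and 4 last acceptors. With Ensembl transcripts only, 82 genes differed in share and 107 in the most abundant isoform. The other 22 recomputed counts, among them those with TMM, with the rod column subtracted, with isoforms of the same introns summed and with either splice site of an exon, stayed within 1.5 times. After rod subtraction 156 genes differed in share, 141 of them among the 149. No value of a named gene, exon or list changed direction past its size under the alternatives run. Of the other values 40 moved, all by scaling or rod subtraction, and the cause was not tested. The oxidative phosphorylation median changed sign, as given above. No paired analysis was possible because cells of all libraries share a column, and for that reason no library could be left out. Cones, with 7307134 counts, limit what can be seen: 3 counts are 0.411 CPM there and 0.103 CPM in bipolar cells.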

Other observations

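Among genes outside the comparison because the bipolar count was under 100, Gulo, the last enzyme of vitamin C synthesis, had 85 counts in bipolar cells and 1703 in cones (233 CPM), and the chemokine Ccl9 had 75 and 1699. Cldn7, a tight junction claudin, had 88 and 1446 counts, and Gsc2, a homeobox gene, 28 and 787. On the other side Scgn, the calcium-binding protein secretagogin, had 11622 counts in bipolar cells (401 CPM) and 76 in cones, Cabp2 had 9882 and 48, and Mapt, the microtubule protein tau, 5753 and 73. These were chosen after their values were seen.

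Cngb1, a channel subunit used here as a rod marker, was at 161 CPM in bipolar cells and 57.6 CPM in cones, or 13.8% and 4.93% of the rod level. Immediate early genes went both ways: Fos was at 271 CPM in bipolar cells and 87.0 CPM in cones (log2 ratio 1.64), Ier3 at 69.2 and 391 CPM (-2.50), Jun at 12.5 and 28.7 CPM (-1.20), and Btg2 at 573 and 628 CPM (-0.13). The C1qa, C1qb and C1qc transcripts of microglia, at 55.2, 53.4 and 27.4 CPM in bipolar cells, made up nearly all of the microglia sum there.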
